A study of Homo sapiens with 9 samples.

Results

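The genes described here are direct targets and feedback genes of the Wnt pathway in PC3 cells, a human cell line from a bone metastasis of prostate cancer. They are AXIN2, LEF1, TCF7, NKD1, NKD2, RNF43, NOTUM, MYC, CCND1 and PPARD, taken as every probe set annotated to these 10 symbols. The arrays held 20 such probe sets among 54613 in all, and these belonged to 9 of the 10 genes. No probe set was listed for TCF7, which was not analysed here. Of the 20, AXIN2 and PPARD had 4 each, LEF1 and NKD1 had 3 each, CCND1 had 2, and NKD2, RNF43, NOTUM and MYC had 1 each.

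Total RNA of PC3 cells was measured on 9 Affymetrix expression arrays after 48 h of culture, to ask how sclerostin and DKK1 in the surroundings of the cancer cells bear on their gene expression. The groups were co-cultures with osteoblasts of Sost knockout mice and no added protein (OB SostKO, 2 arrays), with osteoblasts of wild type mice plus recombinant human DKK1 at 100 ng/ml (OB WT + rhDKK1, 2 arrays) or plus recombinant human SOST at the same dose (OB WT + rhSOST, 3 arrays), and PC3 cells kept without osteoblasts (untreated PC3, 2 arrays). The osteoblasts were primary mouse cells from the skull of pups and grew on hanging culture inserts without touching the PC3 cells. Every group used PC3 cells of this single line, and no array of PC3 cells with wild type osteoblasts and no added protein was analysed here, so the osteoblasts and the added protein cannot be told apart.

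In canonical Wnt signaling, ligands at Frizzled and LRP receptors stop the destruction of beta-catenin, which then enters the nucleus and binds the TCF/LEF factors on DNA. Many of the genes switched on in this way brake the pathway again. AXIN2 is a scaffold of the destruction complex, NKD1 and NKD2 bind Dishevelled, RNF43 is a ubiquitin ligase that removes Frizzled from the cell surface, and NOTUM strips the lipid from Wnt ligands. MYC, CCND1 and PPARD are targets described in colon cancer cells: a transcription factor of cell growth, the cyclin that starts the cell cycle together with CDK4 and CDK6, and a nuclear receptor for fatty acids. Sclerostin and DKK1 are secreted antagonists that bind LRP5 and LRP6.

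A single member, PPARD, passed the threshold of the test in all 3 co-cultures, where it was lower than in untreated PC3 cells. It did so on 1 of its 4 probe sets, the brightest. Its brightest probe set fell by 0.58 in OB SostKO, 0.55 in OB WT + rhDKK1 and 0.46 in OB WT + rhSOST on the log2 scale, which is 1.49-fold, 1.46-fold and 1.37-fold lower. MYC fell 1.34-fold in OB WT + rhSOST, and its values in the other 2 co-cultures were as low but just missed the threshold. Of the feedback genes AXIN2, NKD1, NKD2, RNF43 and NOTUM, no probe set passed in any co-culture. Of all kept probe sets, 1.61% passed in OB SostKO, 1.75% in OB WT + rhDKK1 and 3.99% in OB WT + rhSOST. For so few probe sets, none passing is near those shares. None of the members differed between co-cultures past the threshold, and 0% of all kept probe sets did. The untreated arrays also differed from the co-culture arrays in preparation controls, which cannot be told apart from co-culture here.

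Promoter sequence is shown for PPARD, the member with a probe set that passed in every co-culture, and for RNF43. RNF43 is the feedback gene with the least spread between arrays of a group. Both stretches are the 250 bases before the annotated start in RefSeq (GRCh38.p14), 5′ to 3′ on the strand of the gene. The PPARD stretch is chr6:35342308-35342557 on the plus strand and the RNF43 stretch is chr17:58417535-58417784 on the minus strand. Capitals mark CTTTG, the core of the TCF/LEF motif, or CAAAG, the same core on the other strand.
PPARD: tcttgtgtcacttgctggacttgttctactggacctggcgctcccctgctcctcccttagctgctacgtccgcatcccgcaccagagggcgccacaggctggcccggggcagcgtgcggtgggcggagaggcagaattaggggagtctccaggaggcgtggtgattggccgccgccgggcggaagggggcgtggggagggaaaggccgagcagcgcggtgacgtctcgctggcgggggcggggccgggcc
RNF43: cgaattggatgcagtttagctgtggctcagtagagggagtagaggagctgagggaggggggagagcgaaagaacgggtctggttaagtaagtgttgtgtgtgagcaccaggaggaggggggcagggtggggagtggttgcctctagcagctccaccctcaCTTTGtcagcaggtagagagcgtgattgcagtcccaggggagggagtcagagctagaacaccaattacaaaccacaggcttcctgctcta

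RefSeq windows of this kind were at hand for 4 of the 9 measured genes, LEF1, NKD2, PPARD and RNF43, with 2 windows for RNF43 and 5 in all. The full TCF/LEF motif was searched on either strand as CTTTGA with A or T after it and as CTTTGT with A or T after it. It was in 0 of these 5 windows, against 12% of 35116 windows of all genes. The shorter core, which the full motif contains, was in 3 of the 5 windows, those of LEF1 and RNF43, against 42.1% of all windows. The RNF43 window above holds it once, starting 90 bases before the gene's start, and the PPARD window does not hold it. These matches describe the letters of the windows only.

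The arrays carried RNA of PC3 cells by their markers. All 6 epithelial and PC3 markers, among them the keratins KRT8, KRT18 and KRT19 and the adhesion molecule EPCAM, stood at or above percentile 96.7 of every array. The mean of 9 measured osteoblast markers was 5.49 to 5.63 in the co-cultures and 5.53 to 5.65 in untreated PC3. Of these markers SPP1, a secreted bone matrix protein, stood at or below percentile 7.13 of every array, while RUNX2, a transcription factor of osteoblasts, stood between percentiles 81.5 and 85.1 and COL1A1, a chain of collagen, between 81.9 and 89.1, untreated arrays included. The mean of 5 fibroblast markers was 5.32 to 5.47 in co-cultures and 5.24 to 5.39 in untreated PC3, that of 3 leukocyte markers 4.07 to 4.23 and 4.29 to 4.34, and that of 4 markers of androgen receptor positive prostate 5.57 to 5.86 and 5.88 to 5.94. Array medians ranged over 5.44 to 5.52. The deposited values had been scaled to the same distribution on all arrays, so these medians do not show how alike the arrays were before. The untreated arrays differed from the co-cultures in preparation and hybridization controls. The poly-A controls, bacterial transcripts that are usually added to RNA before labelling, averaged 6.27 ± 0.25 on the 7 co-culture arrays and 10.42 ± 0.43 on the 2 untreated arrays (SD, log2, 27 probe sets). The hybridization controls averaged 10.44 ± 0.12 and 11.01 ± 0.48. The 3′ minus 5′ signal of ACTB, which grows as RNA or cDNA gets shorter, was 1.38 ± 0.33 in co-cultures and 0.69 ± 0.27 in untreated PC3. None of these 3 pairs of ranges overlapped, and the exact permutation test gave p = 0.0556 for each, the smallest that 7 against 2 arrays allow (two-sided). The same measure for GAPDH was 0.20 ± 0.10 and 0.19 ± 0.07 (exact permutation p = 0.833). The 3 differences without overlap run along the contrast of co-culture and untreated PC3, so they cannot be told apart from co-culture here. Their part in the member values below was not tested.

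Each co-culture was compared with untreated PC3 by limma, fitted to all 9 arrays and every kept probe set, and a probe set was called at a Benjamini-Hochberg adjusted p under 0.05. Probe sets under percentile 40 on 8 or more of the 9 arrays were left out, which kept 18 of the 20 member probe sets and 33985 in all. The 2 that were not kept belong to LEF1. In OB SostKO 1 of 18 member probe sets was called lower, against 0.712% of all probe sets called lower. In OB WT + rhDKK1 it was again 1 of 18, against 0.721% of all. With OB WT + rhSOST 2 of 18 were called lower, against 1.33% of all. Not 1 member probe set was called higher. Of all probe sets 0.9%, 1.03% and 2.66% were, in the same order of co-cultures, and for 18 probe sets none is near those shares. The 3 comparisons share the 2 untreated arrays, so a call that recurs across them is not independent. Over the 18 probe sets the median difference was -0.12, -0.13 and -0.10, where the median of all kept probe sets was 0, 0 and 0.01.

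**Figure D1:**
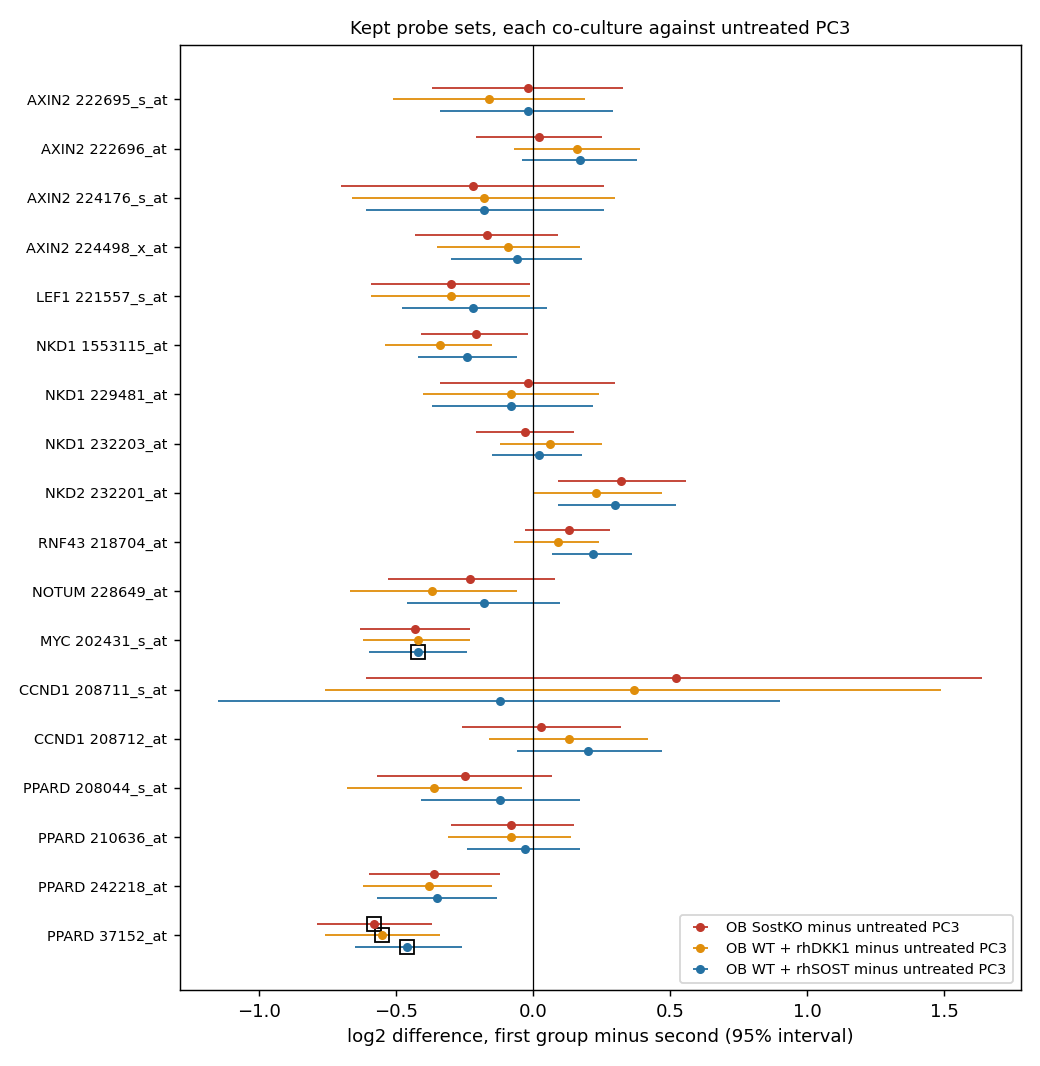
Log2 difference of each kept member probe set in each co-culture minus untreated PC3 (x axis), with 95% intervals from limma as bars; black squares mark an adjusted p under 0.05. PPARD 37152_at is marked in all 3 comparisons, MYC only with OB WT + rhSOST, and the interval of CCND1 208711_s_at is the widest of the 18.

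PPARD, the delta form of the peroxisome proliferator-activated receptors, had the largest fall among the members that passed. Its probe set 37152_at read 10.48 and 10.62 in OB SostKO, 10.60 and 10.56 in OB WT + rhDKK1, and 10.74, 10.57 and 10.69 in OB WT + rhSOST, against 11.18 and 11.08 in untreated PC3. Every co-culture array was thus lower than both untreated arrays, and the 3 co-cultures overlapped in their ranges. The difference from untreated PC3 was -0.58 ± 0.09 for OB SostKO (SE, adjusted p = 0.0325), -0.55 ± 0.09 for OB WT + rhDKK1 (adjusted p = 0.0328) and -0.46 ± 0.08 for OB WT + rhSOST (adjusted p = 0.0289), all by limma with Benjamini-Hochberg adjustment.

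The other 3 PPARD probe sets did not pass. PPARD 242218_at read 8.92 and 8.64 in OB SostKO, 8.70 and 8.82 in OB WT + rhDKK1, and 8.82, 8.77 and 8.78 in OB WT + rhSOST, against 9.16 and 9.12 in untreated PC3. This probe set too was lower on all 7 co-culture arrays, with differences of -0.36, -0.38 and -0.35 and adjusted p of 0.125, 0.106 and 0.0834 (limma). For 208044_s_at the differences were -0.25, -0.36 and -0.12, and the arrays of OB WT + rhSOST overlapped the untreated ones. PPARD 210636_at differed by no more than 0.08 in any co-culture and its ranges overlapped in all 3. The 4 probe sets of this gene therefore gave differences of unequal size, with 37152_at farthest from 0 and 210636_at nearest to it. Which stretch of the transcript each reads is not given in the sources used here.

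**Figure D2:**
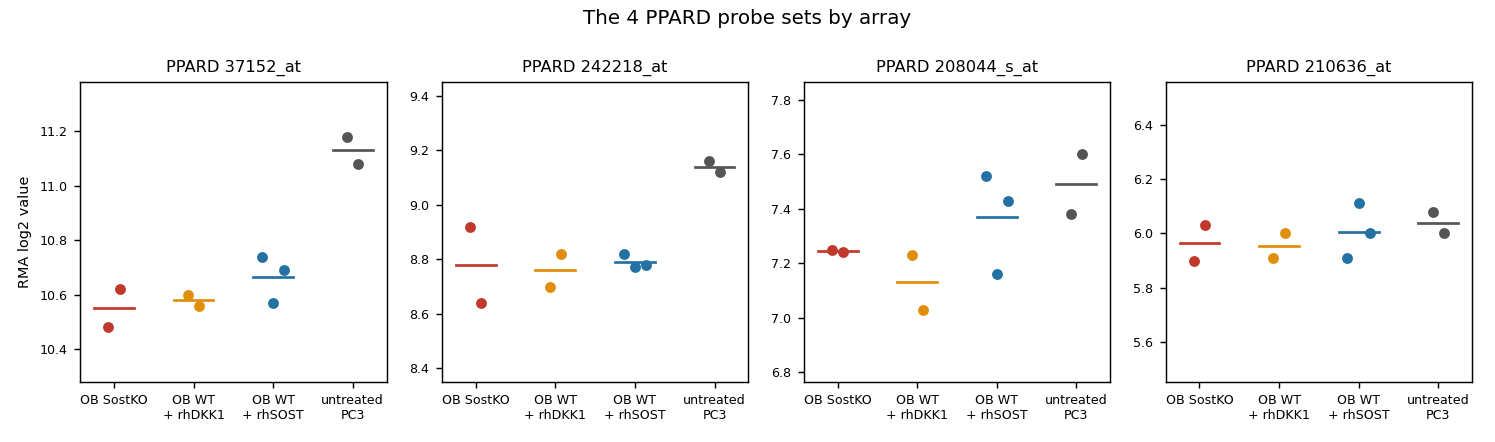
RMA log2 value of the 4 PPARD probe sets (y axis, spanning about the same range in each panel) on every array, by group (x axis); each point is an array and each line the mean of a group. The co-culture arrays lie below both untreated arrays for 37152_at and 242218_at and overlap them for 210636_at, where the highest co-culture array read 6.11 and the higher untreated array 6.08.

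Leaving out arrays changed the PPARD calls but not their direction. The share of all probe sets called moved too. In OB SostKO it was 1.61% on all 9 arrays, 0.484% without array 2 and 4.37% without array 3 of OB WT + rhSOST. The difference of 37152_at ranged over -0.65 to -0.51 for OB SostKO, -0.60 to -0.50 for OB WT + rhDKK1 and -0.51 to -0.41 for OB WT + rhSOST. The OB SostKO call was kept without array 3 of OB WT + rhSOST (adjusted p = 0.0248, limma) and was lost without any other array, up to an adjusted p of 0.165. For the other 2 co-cultures it was kept without either OB SostKO array or array 3 of OB WT + rhSOST and lost otherwise, with adjusted p of 0.0292 to 0.198 and 0.0363 to 0.184 over the 9 fits.

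MYC, the transcription factor that drives ribosome and nucleotide synthesis, had a single probe set, 202431_s_at, and stood between percentiles 97.2 and 98.2 of every array. It read 11.69 and 11.79 in OB SostKO, 11.78 and 11.70 in OB WT + rhDKK1, and 11.68, 11.74 and 11.81 in OB WT + rhSOST, against 12.12 and 12.21 in untreated PC3. All 7 co-culture arrays lay below both untreated arrays, in a span of 11.68 to 11.81. MYC fell by 0.42 in OB WT + rhSOST (SE 0.08, adjusted p = 0.0288, limma). The difference was -0.43 ± 0.08 in OB SostKO (adjusted p = 0.0533) and -0.42 ± 0.08 in OB WT + rhDKK1 (adjusted p = 0.0532), just over the threshold. Between co-cultures MYC differed by no more than 0.01, and the widest 95% interval was -0.20 to 0.19 (OB SostKO minus OB WT + rhDKK1). Leaving out 1 array kept the call in OB WT + rhSOST without either OB SostKO array or array 3 of OB WT + rhSOST and lost it otherwise, with adjusted p of 0.0298 to 0.122. Without array 3 of OB WT + rhSOST, MYC also passed in OB SostKO (adjusted p = 0.038) and OB WT + rhDKK1 (adjusted p = 0.0408).

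CCND1 encodes cyclin D1 and was read by 2 probe sets that behaved differently. The brighter on average, 208712_at, read 11.73 and 11.91 in OB SostKO, 11.93 and 11.90 in OB WT + rhDKK1, and 11.91, 11.88 and 12.18 in OB WT + rhSOST, against 11.89 and 11.69 in untreated PC3. Its differences from untreated PC3 were 0.03, 0.13 and 0.20, and none passed. For 208711_s_at the values were 11.59 and 11.90 in OB SostKO, 11.94 and 11.26 in OB WT + rhDKK1, and 11.94, 11.12 and 10.25 in OB WT + rhSOST, against 10.94 and 11.52 in untreated PC3. Array 3 of OB WT + rhSOST was the lowest of all 9 arrays, and array 1 of the same group was level with the highest. Differences were 0.52 ± 0.49, 0.37 ± 0.49 and -0.12 ± 0.45 (SE), with 95% intervals of -0.61 to 1.64, -0.76 to 1.49 and -1.15 to 0.90. A rise of 2-fold lay inside the intervals of OB SostKO and OB WT + rhDKK1, and a fall of 2-fold inside that of OB WT + rhSOST.

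The spread of 208711_s_at between arrays of a group was among the largest measured. Its within-group SD of 0.61 stood at percentile 99.1 of all kept probe sets, against 0.13 and percentile 58.2 for 208712_at. Across all kept probe sets, the leading component of the deviations of arrays from their group means held 49.5% of the within-group variance, and it set array 3 of OB WT + rhSOST (0.19) at the opposite end from array 1 (-0.16). The deviations of 208711_s_at ran against this component, with Pearson's r = -0.98 and Spearman's rho = -0.95 over 9 arrays and r = -0.94 without the 2 outermost arrays. For 208712_at r was 0.70 and rho 0.63, and r was 0.35 without those 2 arrays. These correlations are descriptions with no p, since the component was computed from the same arrays. In a group of 2 arrays the 2 deviations mirror each other, so the points hold fewer independent values than arrays. Array 3 of OB WT + rhSOST was thus the lowest of its group on 208711_s_at and the highest on 208712_at. The 2 untreated arrays also ran opposite ways on the 2 probe sets. Those of OB SostKO ran the same way on both, as did those of OB WT + rhDKK1, which deviated by only 0.02 and -0.02 on 208712_at. The 3′ minus 5′ signal of ACTB was 2.06, 1.44 and 1.32 on the arrays of OB WT + rhSOST, where 208711_s_at deviated from the group mean by 0.83, 0.02 and -0.85. It was 1.19 and 0.99 in OB WT + rhDKK1, with deviations of 0.34 and -0.34, and 0.50 and 0.88 in untreated PC3, with deviations of -0.29 and 0.29. In OB SostKO it was 1.32 on both arrays, with deviations of -0.15 and 0.15. The part of this signal in the CCND1 values was not tested.

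**Figure D3:**
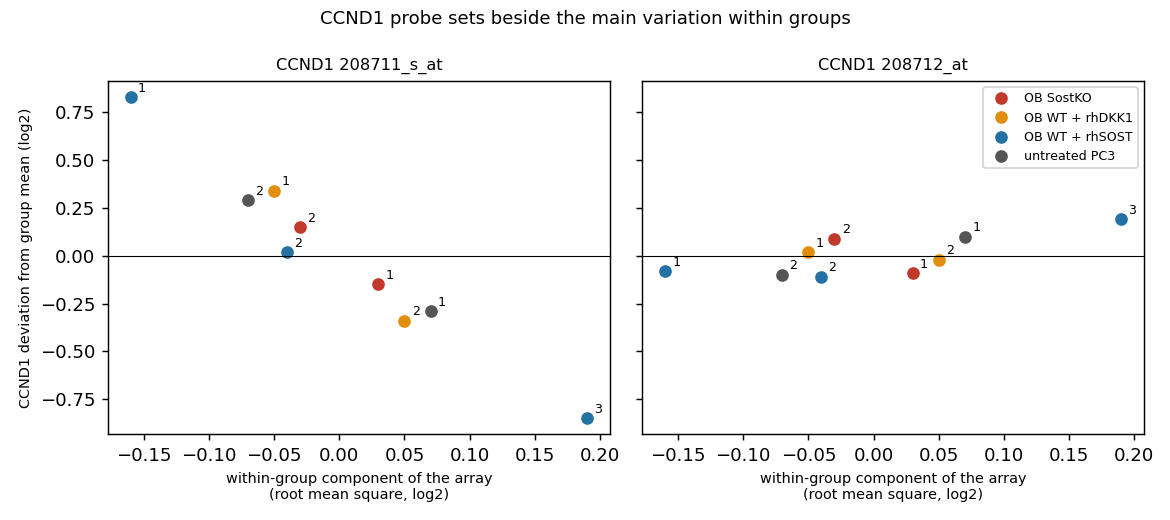
Deviation of each array from its group mean for the 2 CCND1 probe sets (y axis, log2) against the leading within-group component of that array (x axis, log2); digits give the replicate number and colors the group. The 3 arrays of OB WT + rhSOST lie farthest apart for 208711_s_at, from array 1, which read 11.94, to array 3, which read 10.25.

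AXIN2, the most widely used readout of canonical Wnt signaling, did not differ from untreated PC3 past the threshold. Its brightest probe set, 222696_at, read 6.28 and 6.49 in OB SostKO, 6.59 and 6.46 in OB WT + rhDKK1, and 6.57, 6.56 and 6.46 in OB WT + rhSOST, against 6.40 and 6.32 in untreated PC3. The differences were 0.02 (95% interval -0.21 to 0.25), 0.16 (-0.07 to 0.39) and 0.17 (-0.04 to 0.38). A rise or fall of AXIN2 by 2-fold lay outside these intervals. The other 3 AXIN2 probe sets had differences at or below 0, between -0.22 and -0.02, and none passed. AXIN2 222696_at stood between percentiles 60.5 and 63.5 of the arrays, and 224498_x_at lay near the filter, between percentiles 38.3 and 44.2. On 224176_s_at the 2 untreated arrays, 6.31 and 5.58, spanned all co-culture arrays.

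Among the brakes that act on Dishevelled, NKD2 was higher on every co-culture array and NKD1 lower on its brightest probe set, without passing. NKD2 read 7.83 and 7.76 in OB SostKO, 7.66 and 7.76 in OB WT + rhDKK1, and 7.81, 7.76 and 7.77 in OB WT + rhSOST, against 7.34 and 7.61 in untreated PC3. The differences were 0.32, 0.23 and 0.30, with adjusted p of 0.153, 0.264 and 0.116 (limma). With arrays left out in turn they ranged over 0.18 to 0.46, 0.10 to 0.37 and 0.17 to 0.44, lowest without array 1 and highest without array 2 of untreated PC3, and none passed. NKD1 1553115_at read 5.61 and 5.61 in OB SostKO, 5.43 and 5.54 in OB WT + rhDKK1, and 5.63, 5.58 and 5.56 in OB WT + rhSOST, against 5.91 and 5.75 in untreated PC3. Its differences were -0.21, -0.34 and -0.24, with adjusted p of 0.232, 0.087 and 0.138 (limma). The other 2 NKD1 probe sets read 4.87 to 5.23, close to the filter, and differed from untreated PC3 by no more than 0.08.

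RNF43 and NOTUM act at the cell surface and outside the cell. RNF43 read 7.17 and 7.16 in OB SostKO, 7.11 and 7.14 in OB WT + rhDKK1, and 7.26, 7.25 and 7.25 in OB WT + rhSOST, against 7.05 and 7.03 in untreated PC3. All 7 co-culture arrays lay above both untreated arrays, as for 13.1% of all kept probe sets. The order of the group means was OB WT + rhSOST, OB SostKO, OB WT + rhDKK1, untreated PC3. Between co-cultures no RNF43 difference passed. The within-group SD of 0.01 was smaller than that of nearly all kept probe sets (percentile 0.0265), and limma draws such a variance toward that of other probe sets. The differences from untreated PC3 were 0.13 ± 0.07, 0.09 ± 0.07 and 0.22 ± 0.06 (SE), with adjusted p of 0.362, 0.523 and 0.0995. NOTUM read 6.67 and 6.60 in OB SostKO, 6.32 and 6.67 in OB WT + rhDKK1, and 6.72, 6.55 and 6.77 in OB WT + rhSOST, against 6.78 and 6.94 in untreated PC3. Its differences were -0.23, -0.37 and -0.18 (adjusted p = 0.394, 0.19 and 0.441, limma), and all 7 co-culture arrays were lower, though array 3 of OB WT + rhSOST and array 1 of untreated PC3 were almost level. With arrays left out in turn the NOTUM differences ranged over -0.31 to -0.15, -0.54 to -0.19 and -0.26 to -0.10, and none passed.

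LEF1, a TCF/LEF factor that is itself a Wnt target, had 1 of its 3 probe sets kept by the filter. The kept probe set, 221557_s_at, read 5.83 and 5.64 in OB SostKO, 5.58 and 5.90 in OB WT + rhDKK1, and 5.88, 5.80 and 5.77 in OB WT + rhSOST, against 5.95 and 6.12 in untreated PC3. The differences were -0.30, -0.30 and -0.22, with adjusted p of 0.246, 0.256 and 0.331 (limma). LEF1 221558_s_at, which was not kept, lay the other way, at 4.60 to 5.0 in the co-cultures and 4.15 to 4.48 in untreated PC3. LEF1 210948_s_at, also not kept, read 4.14 to 4.49 and 4.33 to 4.39. The probe sets of this gene gave no common direction.

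**Figure D4:**
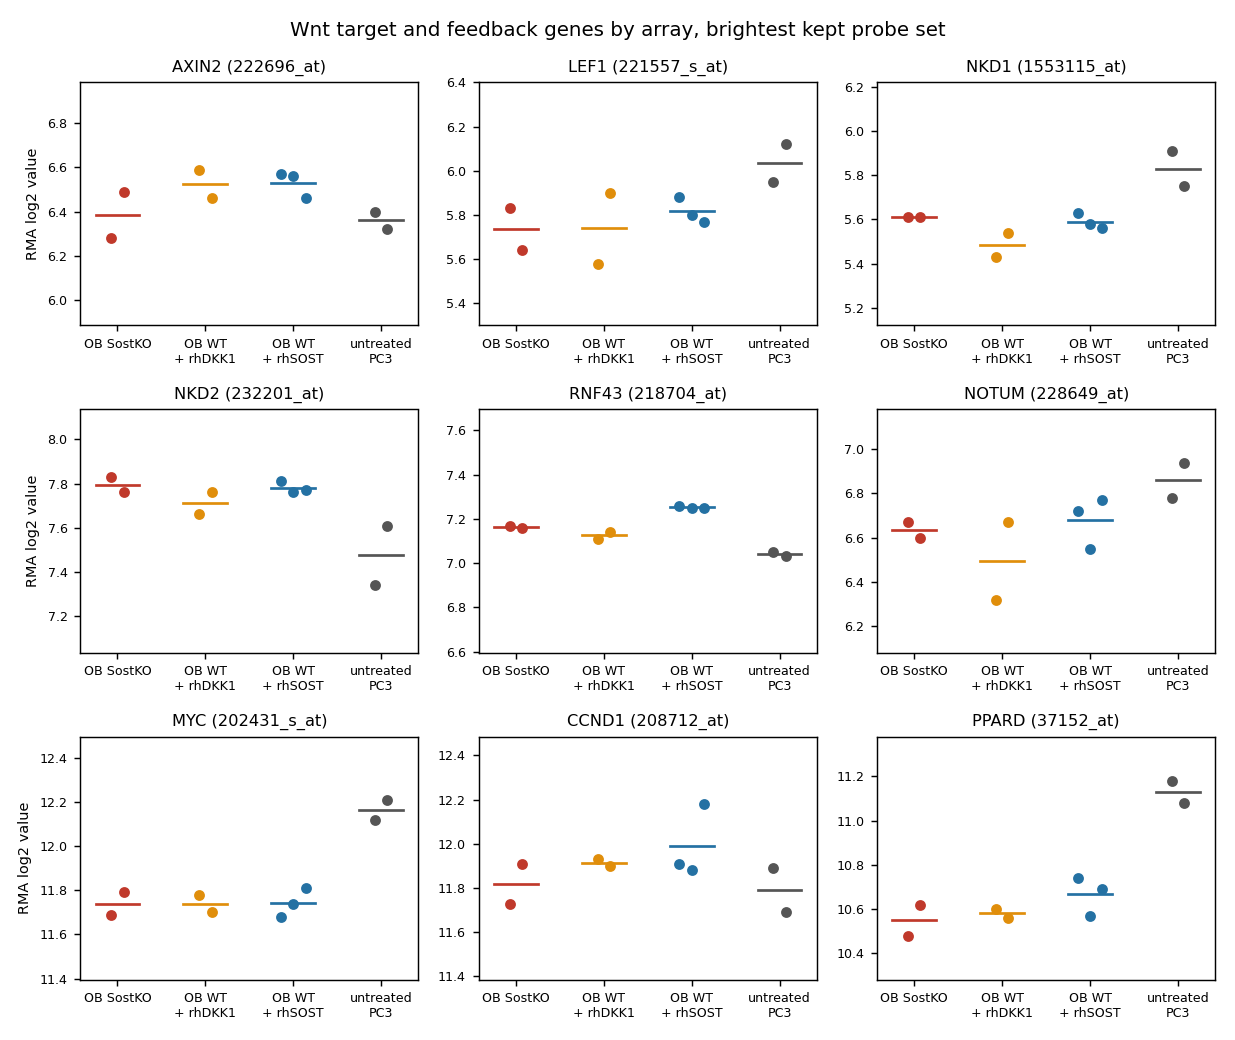
RMA log2 value (y axis, spanning about the same range in each panel) of the brightest kept probe set of each of the 9 genes on every array, by group (x axis); points are arrays and lines group means. All 7 co-culture arrays lie below both untreated arrays for MYC, PPARD, LEF1, NKD1 and NOTUM and above both for NKD2 and RNF43. Of all kept probe sets, 10.6% lay lower and 13.1% higher in this way. For CCND1 and AXIN2 the arrays of OB SostKO overlap untreated PC3.

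Over the 18 kept probe sets, all 7 co-culture arrays lay below both untreated arrays for 6 (MYC, PPARD 37152_at and 242218_at, NKD1 1553115_at, LEF1 221557_s_at and NOTUM) and above both for 2 (NKD2 and RNF43). The corresponding shares of all kept probe sets were 10.6% and 13.1%. At an unadjusted p under 0.05 there were 6 member probe sets in OB SostKO, 7 in OB WT + rhDKK1 and 6 in OB WT + rhSOST, against 18.9%, 19% and 20.9% of all. In these bulk samples, fewer cells of a kind and less RNA per cell cannot be told apart.

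The co-cultures were then compared with each other, since OB SostKO and OB WT + rhDKK1 are set against OB WT + rhSOST in this design. Not 1 of the 18 member probe sets was called in OB SostKO against OB WT + rhSOST, OB WT + rhDKK1 against OB WT + rhSOST or OB SostKO against OB WT + rhDKK1, and 0% of all probe sets was called (limma). At an unadjusted p under 0.05 there were 0 member probe sets in each, against 3.43%, 2.33% and 0.853% of all probe sets. For PPARD 37152_at the difference was -0.12 (95% interval -0.32 to 0.07) for OB SostKO minus OB WT + rhSOST and -0.09 (-0.29 to 0.10) for OB WT + rhDKK1 minus OB WT + rhSOST. For AXIN2 222696_at the same differences were -0.15 (-0.36 to 0.06) and -0.01 (-0.22 to 0.21). RNF43 was lower than in OB WT + rhSOST on every array of the other 2 co-cultures, with differences of -0.09 in OB SostKO (95% interval -0.24 to 0.05, adjusted p = 0.843, limma) and -0.13 in OB WT + rhDKK1 (-0.27 to 0.01, adjusted p = 1, limma). Among all kept probe sets, 9.53% and 10.9% were lower without overlap in these comparisons. The widest intervals were those of CCND1 208711_s_at, at 1.03 and 1.13 on either side of the difference.

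**Figure D5:**
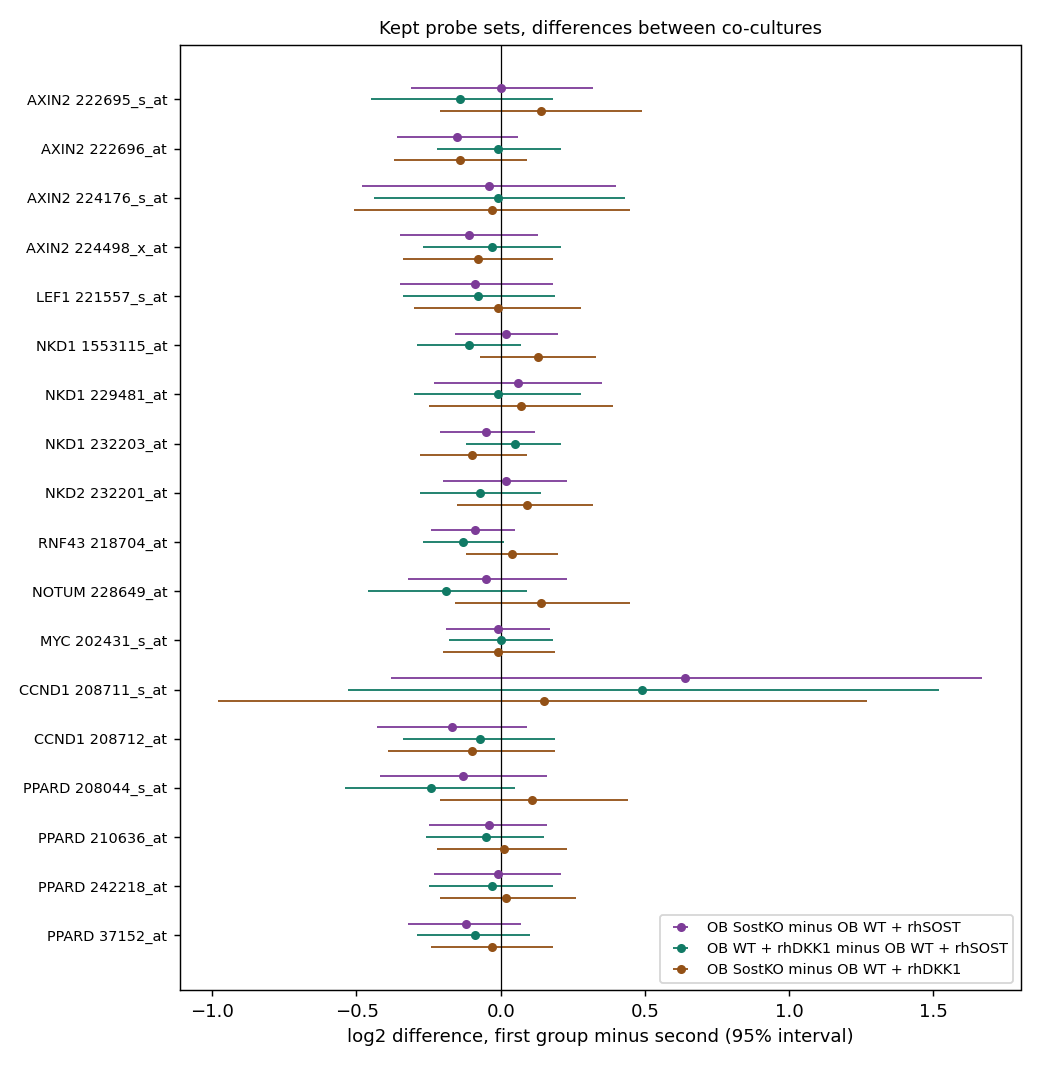
Log2 difference between co-cultures for each kept member probe set (x axis), with 95% intervals from limma as bars. The intervals include 0 for every probe set, and the interval of CCND1 208711_s_at is the widest.

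Other genes around these members were counted from lists, with the brightest kept probe set standing for a gene. Of 33 measured Wnt target and feedback genes besides the members, 0 were called in any co-culture, and their median difference was -0.10 in OB SostKO, -0.08 in OB WT + rhDKK1 and -0.07 in OB WT + rhSOST, where the median of all genes was -0.01, -0.01 and 0.02. The 2 with the smallest p in any of the 3 comparisons, here that of OB SostKO for both, were BMP4, a ligand of the BMP pathway, with differences of -0.40, -0.25 and -0.31 (adjusted p = 0.0613, 0.156 and 0.0632, limma), and PTGS2, the inducible cyclooxygenase, with -0.86, -0.53 and -0.60 (adjusted p = 0.0638, 0.177 and 0.0925, limma). The PTGS2 difference in OB SostKO ranged over -1.18 to -0.55 with arrays left out in turn, the ends being without array 2 and without array 1 of that group, and it passed without array 2 of OB SostKO (adjusted p = 0.0271, limma) or array 3 of OB WT + rhSOST (adjusted p = 0.0488). In OB WT + rhSOST it passed without either OB SostKO array (adjusted p = 0.0243 each, limma). Both genes, picked by their p, were lower on all 7 co-culture arrays, as were 10.6% of all kept probe sets. Of 13 coactivators, corepressors and other TCFs, 0 were called. BCL9, which bridges beta-catenin and Pygopus, read 6.97 and 6.98 on average in OB SostKO and OB WT + rhDKK1 and 7.20 in OB WT + rhSOST, against 6.90 in untreated PC3. TCF7L2, a TCF known from the intestinal epithelium, had differences of 0.10, 0.10 and 0.30 (adjusted p = 0.539, 0.562 and 0.0737, limma).

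The partners and targets of MYC, CCND1 and PPARD were counted in the same way. Of 17 measured MYC target genes, 0 were called, and the median difference was -0.01, -0.02 and 0.01. POLR1B, a subunit of RNA polymerase I, had differences of 0.25, 0.25 and 0.27, and RRP9, a factor of ribosomal RNA processing, had -0.43, -0.39 and -0.32, so the 2 MYC targets with the smallest p in any comparison lay on opposite sides of 0. Of 8 MYC partners and antagonists, 0 were called. MXI1, which competes with MYC for MAX, had differences of 0.29, 0.35 and 0.32 (adjusted p = 0.208, 0.142 and 0.125, limma), and MNT, another such antagonist, had 0.11, 0.09 and 0.19. Of 10 cyclin D1 partners and brakes, 1 was called lower in every co-culture, against 0.78%, 0.841% and 1.36% of all genes. It was CDKN1A, the p21 inhibitor of cyclin-dependent kinases. CDKN1A read 8.46 and 8.29 in OB SostKO, 8.23 and 8.35 in OB WT + rhDKK1, and 8.51, 8.35 and 8.38 in OB WT + rhSOST, against 9.12 and 9.23 in untreated PC3. All co-culture arrays were lower than the untreated ones, and CDKN1A fell by 0.80, 0.89 and 0.76 (adjusted p = 0.0145, 0.0109 and 0.00779, limma). The calls were lost without array 1 of untreated PC3 (adjusted p = 0.0926, 0.0685 and 0.0613), and those of OB SostKO and OB WT + rhDKK1 also without array 2 of untreated PC3 or either array of their own group, with adjusted p up to 0.109. Of 10 measured PPARD targets and partners, 0 were called. ANGPTL4, an inhibitor of lipoprotein lipase and a target of PPARD, had differences of -0.25, -0.43 and -0.41, and PLIN2, a coat protein of lipid droplets, had -0.18, -0.21 and -0.24. Both lay lower on all 7 co-culture arrays without passing. They were named for having the smallest p of the list, and 10.6% of all kept probe sets lay lower in this way. Over the 10 genes the median difference was -0.09, -0.08 and -0.07, where that of all genes was -0.01, -0.01 and 0.02. The ANGPTL4 difference in OB SostKO was -0.43 without array 1 and -0.08 without array 2 of that group.

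The genes whose values ran most alike with a member over the 9 arrays were found by Pearson's r, as a description in which the points share the contrast of co-culture and untreated arrays. For MYC they were GCH1 (r = 0.987), APOBEC3B (0.987) and CYREN (0.983), among 270 genes with r over 0.9. PPARD ran with PPP1R15A (r = 0.986), RELB (0.982) and ICAM1 (0.981), among 242 such genes. For example, RELB, an NF-kappaB subunit, read 6.40 to 6.79 in co-cultures and 7.45 to 7.52 in untreated PC3, and ICAM1, a cell adhesion molecule, read 7.32 to 7.68 and 8.15 to 8.19. The genes nearest to CCND1 208712_at were SYT17 (r = 0.988), FBLN7 (0.974) and ARHGEF12 (0.97), among 42, and those nearest to AXIN2 222696_at were C16orf46 (r = 0.953), HSPA1L (0.933) and NKIRAS1 (0.924), among 5. None of these 6 genes separated the co-culture arrays from the untreated arrays, as CCND1 and AXIN2 did not.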

How the data were processed

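Expression was measured on 9 Affymetrix Human Genome U133 Plus arrays of PC3 cells, grouped by the sample labels, where arrays of a group are numbered as biological replicates. The authors deposited log2 values from RMA, a tool named in the submitters' processing notes. RMA subtracts background, gives all arrays the same distribution and combines the probes of a set, so a uniform shift of all RNA would not be seen. The software version is not given in the sources used here. Where a gene had several kept probe sets, the one with the highest mean stood for it, and levels of different genes were not compared.

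Values were analyzed with R 4.3.3 and limma 3.58.1, and exact tests with SciPy 1.17.1. The table held 54675 probe sets, of which 62 were controls and not tested. The platform annotation gave 1 gene symbol to 41091 of the others, several to 1801 and none to 11721, and genes were named only from the first kind. After the filter at the 40th percentile, 33985 probe sets and 14869 genes remained. Group means were fitted to all 9 arrays with lmFit and eBayes, p-values were adjusted over all kept probe sets, and 95% intervals are for single probe sets. The number of arrays limits the precision.

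The members and the gene lists were chosen with earlier results of these data known. Named from each list were the genes called in any comparison with untreated PC3 or, where none was, the 2 with the smallest p in any of the 3, and for MYC, CCND1, PPARD and AXIN2 the 3 genes most alike. The methods of the study state ANOVA with Tukey's comparisons and a paired t-test, which were run as alternatives beside other filters, scalings, probe set rules, thresholds, a replicate block and leaving out each array. Deviations of same-numbered arrays of different groups had r of -0.54 to 0.43 over 12 pairs, 4 of them over 0.1. Between 2 groups of 2 arrays both pairs give the same r by construction, so these values cannot exclude a pairing. The numbers were not used as pairs in the reported fits, while the replicate block and the paired t-test used them.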

Additional observations from a re-analysis of the deposited data

How the results depend on the processing

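Counts of member probe sets called against untreated PC3 are given for OB SostKO, then OB WT + rhDKK1, then OB WT + rhSOST, where the reported counts are 1, 1 and 2. They were 2, 2 and 2 with a filter at the 60th percentile, with cyclic loess, with 1 probe set per gene and with an intensity trend and robust prior, each time with PPARD and MYC called lower. Of all features tested, 3.17%, 3.55% and 6.55% were called with that filter, 1.65%, 1.87% and 3.49% with cyclic loess, 3.72%, 4.26% and 6.97% with 1 probe set per gene and 2.59%, 2.51% and 4.93% with the trend. The mean of the probe sets of a gene gave 2, 2 and 1, against 2.76%, 3.07% and 4.9% of all. The 1 called in OB WT + rhSOST was MYC, and PPARD, at a difference of -0.24 there, did not pass. With no filter the counts were those reported, against 0.668%, 0.8% and 1.95% of all. All 3 counts were 0 when only the 2 groups compared were fitted, against 0.177%, 0% and 0.435% of all. With the replicate block they were 0 against 1.74%, 1.67% and 2.05%. They were 0 with a fold of 2 added to an adjusted p (0.238%, 0.268% and 0.303% of all) or to an unadjusted p (0.812%, 0.691% and 0.394%). The methods' paired t-test gave 0 each after Benjamini-Hochberg adjustment, against 0%, 0.00294% and 0.00588% of all. The methods' ANOVA with Tukey's comparisons gave 3, 5 and 5 unadjusted, against 7.82%, 8.18% and 9.76% of all probe sets. Adjusted, it gave 0, 0 and 1, against 0.0412%, 0.00294% and 0.0588% of all. The 1 called was RNF43 in OB WT + rhSOST (adjusted p = 0.0444, the ANOVA and Tukey test). The methods' paired t-test gave 2, 1 and 5 unadjusted, against 8.01%, 7.57% and 7.85% of all. Without array 1 of OB WT + rhSOST the counts were 0, 0 and 0, against 0.693%, 0.991% and 1.41% of all. Without array 2 of that group they were again 0, against 0.484%, 0.534% and 0.625%. Without array 3 they were 2, 2 and 2, against 4.37%, 4.02% and 4.91%. Where a group was left with 1 array, that array was taken to vary like the others, and the counts are not given.

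Between co-cultures 0 member probe sets were called under every alternative but the unadjusted tests: the ANOVA with Tukey's comparisons called 1 in OB SostKO against OB WT + rhSOST and 1 in OB WT + rhDKK1 against OB WT + rhSOST (0.744% and 0.586% of all), and the paired t-test called 1 in OB SostKO against OB WT + rhSOST and 1 in OB SostKO against OB WT + rhDKK1 (3.43% and 2.21% of all). In the replicate block, array 3 of OB WT + rhSOST is the sole array of its number and adds nothing to the fit; PPARD then had adjusted p of 0.0564, 0.0638 and 0.0788 and MYC 0.0771, 0.0804 and 0.0629 (limma).

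Directions of single genes reversed in 7 of 1374 refits of the members and of the genes named from the lists. The refits of the list genes were chosen after seeing the data. Many refits leave a difference unchanged by construction, such as those with another threshold or without an array of a group not compared. The count therefore does not measure how stable the directions were. AXIN2 as the mean of its probe sets differed by -0.10, -0.07 and -0.02, and in OB SostKO it differed by -0.02 without array 2 of untreated PC3 and by -0.09 without array 2 of OB SostKO (0.13 without array 1 of OB SostKO). CCND1 in OB SostKO differed by -0.07 and -0.06 without the same arrays (0.13 without array 1 of untreated PC3). The cause of these shifts was not tested. The probe sets of LEF1, NKD1 and AXIN2 near or under the filter limit what these arrays show for those genes.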
